A study of Salmo salar with 9 samples.

Results

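The sequences described here are those of the complement system in head kidney RNA of Atlantic salmon (Salmo salar). A sequence was taken when its description contained Complement C, Complement component, Complement factor, Complement receptor, Complement decay, C4b-binding, Properdin, Mannan-binding lectin serine protease, Ficolin or C3a anaphylatoxin, and when its counts summed to 20 or more over the 9 fish. This gave 69 of 87600 contigs of the assembly made from the reads themselves (de novo reference) and 10 of 48223 salmon cDNA entries (NCBI reference), so 79 of 135823 sequences in all. The choice did not use the diets. At the edge of the count minimum, a C3 contig with 20 counts was kept on the de novo reference and a C1q tumor necrosis factor-related contig with 17 counts was not. On the NCBI reference the corresponding entries were a C1q-binding protein entry with 23 counts and a C6 entry with 8 counts.

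The fish came from a commercial salmon farm and were fed for 42 days on a fishmeal-based control diet (FMC), on a diet with 10% of the kelp Laminaria digitata (SW1) or on a diet with 10% of the seaweed blend Oceanfeed (SW2). There were 3 fish per diet, with 1 fish sequenced from each tank of several, so that fish and tank cannot be told apart. Every fish, those on FMC included, was injected with bacterial lipopolysaccharide (LPS) at 6 mg per kg and sampled 68 to 70 h later. No fish without LPS was analysed here, so each comparison is one between diets after the challenge and none is a response to LPS.

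Complement is a set of plasma proteins and receptors that tags microbes for uptake, draws in leukocytes and punches pores in membranes. C1q, bound to antibody or to a surface, activates the proteases C1r and C1s, which cleave C4 and C2. Factor B and factor D do the corresponding work in the alternative pathway, and properdin stabilises its convertase. All routes meet at C3, whose fragment C3a acts through its own receptor, and end in the membrane attack complex of C5b, C6, C7, C8 and C9. Regulators such as C4b-binding protein and decay-accelerating factor limit the convertases on host cells. In mammals the liver makes most plasma C3, whereas C1q and properdin are made largely by myeloid cells. Teleosts carry several C3 genes, and their head kidney is a blood-forming organ rich in macrophages, granulocytes and B cells.

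Library totals were 8259299 to 12228633 counts on the de novo reference and 2158027 to 3203677 counts on the NCBI reference. On both references a pair of libraries, FMC fish 2 and SW1 fish 1, differed from the rest. On the first principal component of the de novo libraries (47.4% of the variance) these fish lay at 0.606 and 0.600, and the other 7 fish lay between -0.305 and -0.026. Hemoglobin contigs summed to 25151 counts per 1000000 (CPM) in FMC fish 2 and to 5967 CPM in SW1 fish 1, and to 1456 to 3065 CPM in the other fish. In SW2 fish 1 a single contig outside the complement set took 16.5% of the de novo counts. The TMM factor of this library was 0.857, beside 0.841 in SW1 fish 2, where no contig took more than 2.12%. Markers of macrophages (all 6 genes listed) and B cells (all 4) had contigs on the de novo reference. Of the 7 kidney markers listed, 3 (uromodulin, aquaporin and megalin) had contigs, which summed to 112 to 317 CPM over all fish. The filtration markers nephrin and podocin had no contig with 20 counts, nor had cubilin and the sodium/glucose cotransporter.

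The contigs were sorted by the part they play in the cascade. The classical pathway had 15 de novo contigs (C1q A, B and C chain, C1s and C4), C3 and the alternative pathway 20 (13 of C3, 3 of factor D and 4 of properdin), and the terminal pathway 6 (C6, 4 of C7 and the C8 gamma chain). Soluble regulators had 2 contigs, both of the C4b-binding protein alpha chain, and receptors and membrane regulators had 16, of which 9 were C3a receptor contigs. A further 10 contigs carried the words without belonging to the cascade, among them C1q-binding protein, C1q-like proteins and CD93. No description with 20 counts named C1r, C2, C5, C9, factor B, factor H, factor I, a mannan-binding lectin serine protease or a ficolin. The names are best database matches: 48 of the 69 contigs were named after a protein, mostly mammalian, and 21 after a salmonid nucleotide entry. Contigs of a gene may be pieces of a transcript, copies left by the salmonid genome duplication or alleles, and reads that fit several near-identical copies may have been split among them. No contig lengths were at hand, so levels were compared between fish. High or low counts of a gene do not give its level beside another gene.

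The NCBI reference held 37 entries with the complement words, of which 27 had fewer than 20 counts. All 9 of its curated RefSeq mRNA entries with these words were at 0 in every fish. This was a property of that class of entries, since 98.8% of 3487 RefSeq mRNA entries were at 0 against 35.3% of the 44736 other entries. Of the other entries with the complement words, 15 of 28 (53.6%) were also at 0. All entries of C7 (2), C8 gamma chain (4) and C1q B chain (2) were at 0 there, and the C6 entries had at most 8 counts, while contigs of the same names were well covered on the de novo reference. The gene content of the set therefore differed by reference, and most values below come from the de novo reference.

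No complement contig was called between diets at an adjusted p under 0.05 in any of the 4 comparisons on either reference (edgeR's quasi-likelihood test, Benjamini-Hochberg adjustment over all contigs of a reference). Among all contigs, 0.00343% were called in SW1 vs. FMC, 0% in SW2 vs. FMC, 0.00114% in SW2 vs. SW1 and 0% in the mean of SW1 and SW2 vs. FMC on the de novo reference, and 0% in all 4 on the NCBI reference. DESeq2 called no complement contig either. With quality weights, limma voom called 3 of 69 (4.35%), all in SW2 vs. SW1 on the de novo reference, where it called 7.03% of all contigs. In SW2 vs. FMC, 49 of 69 de novo contigs had a log2 fold change above 0 and their median was 0.29, beside 0.00 over all 87309 contigs tested. The median was 0.15 in SW1 vs. FMC (44 of 68 tested above 0, all contigs -0.01), 0.01 in SW2 vs. SW1 (36 of 69, all contigs -0.01) and 0.15 for both seaweed diets against FMC (42 of 69, all contigs -0.02). These comparisons share fish, and a median over the list carries no test.

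At an unadjusted p under 0.05, SW2 vs. FMC had 6 higher complement contigs of 69 tested (8.7%), where 2.39% of all contigs were higher by this rule, and 1 lower, where 3.63% were. SW2 vs. SW1 had 8 higher (background 2.05%) and 1 lower (background 3.74%). SW1 vs. FMC had 1 higher (background 1.03%) and none lower (background 0.649%), and both seaweed diets together against FMC 3 higher (background 1.39%) and 1 lower (background 1.98%). When contigs of the same description were summed, 46 complement descriptions were tested. SW2 vs. SW1 then had 2 higher (background 1.84%) and 1 lower (background 3.95%). SW2 vs. FMC then had 5 higher (background 2.61%) and 1 lower (background 3.71%). On the NCBI reference the counts among 10 entries, in either direction, were 0 in SW1 vs. FMC (1.81% of all entries), 1 in SW2 vs. FMC (5.68%), 1 in SW2 vs. SW1 (5.63%) and 1 for the mean of both diets (3.3%). FMC fish 2 and SW1 fish 1 were also left out, a setting chosen after seeing the data. In SW2 vs. FMC, which never held SW1 fish 1, this is the same fit as leaving out FMC fish 2 alone. There the de novo counts were 12 higher and 2 lower (4.04% and 3.86% of all contigs in that setting). They were 11 and 4 in SW2 vs. SW1 (5.88% and 6.65%) and 8 and 1 in SW1 vs. FMC (2.65% and 1.91%). For the mean of both diets they were 12 and 0 (2.73% and 1.83%). No complement contig had an adjusted call in this setting.

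**Figure D1:**
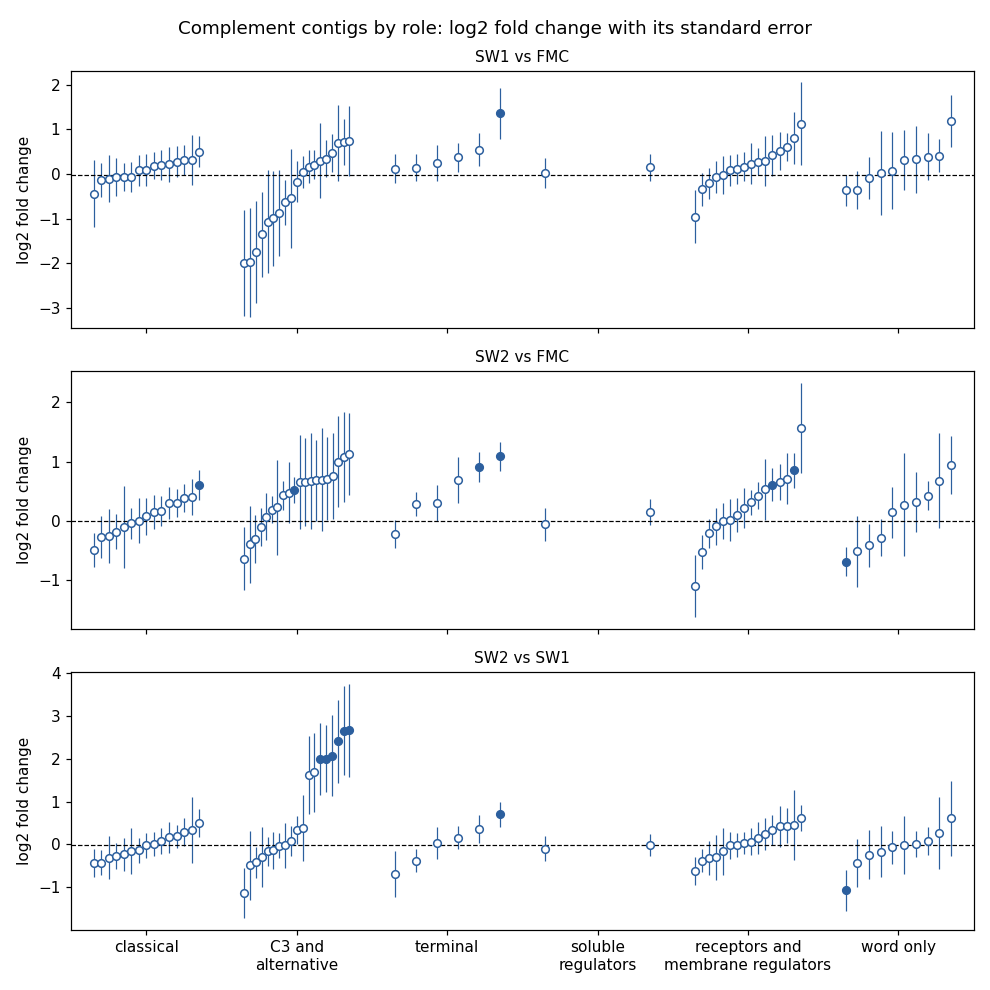
Log2 fold change (y axis) of each complement contig on the de novo reference in 3 comparisons, sorted within its role; bars are 1 standard error, filled points have an unadjusted p under 0.05, and the dashed line is the median of all contigs tested. The C3 contigs reach up to 2.67 in SW2 vs. SW1, C7 contigs lie highest of the terminal pathway in SW2 vs. FMC at 1.09 and 0.90, and a C3 contig with 1 count in SW1 is left out of the lowest panel.

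By role, the median in SW2 vs. FMC was 0.58 for C3 and the alternative pathway (20 contigs, 16 above 0), 0.50 for the terminal pathway (6 contigs, 5 above 0), 0.27 for receptors and membrane regulators (16 contigs, 12 above 0), 0.08 for the classical pathway (15 contigs, 9 above 0) and 0.05 for the soluble regulators (2 contigs). In SW1 vs. FMC the order was another one, with 0.31 for the terminal pathway (all 6 above 0), 0.20 for receptors and membrane regulators, 0.09 for the classical pathway, 0.09 for the soluble regulators and -0.17 for C3 and the alternative pathway. The 10 contigs outside the cascade had medians of 0.21 in SW2 vs. FMC (6 above 0) and 0.19 in SW1 vs. FMC (7 above 0). Of the 20 contigs of C3 and the alternative pathway, 9 were low-count C3 contigs that may be pieces of 1 transcript. They lay at 0.65 to 1.13 in SW2 vs. FMC, and those tested in SW1 vs. FMC lay below 0. Both medians of C3 and the alternative pathway thus depend on them. Summed over the 20 contigs, mostly factor D, the diets overlapped, with 599, 594 and 485 CPM on FMC and 556, 880 and 661 CPM on SW2.

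For both seaweed diets together against FMC the classical pathway median was 0.16, beside -0.02 over all contigs. C1q is built of A, B and C chains, each from its own gene. The C1q A chain (contig 13963) had 61.8, 119 and 82.0 CPM in the 3 FMC fish, 91.6, 90.2 and 71.8 CPM in the SW1 fish and 82.5, 101 and 72.0 CPM in the SW2 fish. The FMC fish thus held both the lowest and the highest value, and the diets overlapped, at -0.06 ± 0.34 (log2 fold change ± SE) for SW1 and -0.04 ± 0.27 for SW2. The C1q B chain (contig 2509) had 115, 317 and 162 CPM on FMC, 263, 178 and 132 CPM on SW1 and 112, 199 and 180 CPM on SW2. Its highest values were those of FMC fish 2 and SW1 fish 1. The C1q C chain was most read on the NCBI reference, where entry BT059599.1 had 838, 1361 and 985 CPM on FMC, 1208, 391 and 687 CPM on SW1 and 848, 1195 and 1267 CPM on SW2. SW1 fish 2 was the low one, and the difference between SW2 and SW1 (log2 0.53 ± 0.38) was not beyond the spread of the fish. The de novo C1q C contig 19610 had 4.37 to 10.8 CPM over all 9 fish.

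C1q B had 2 further contigs. Contig 2508, named after a salmon cDNA, had 20.5, 7.28 and 24.9 CPM on FMC, 6.59, 35.3 and 24.0 CPM on SW1 and 21.7, 16.1 and 15.1 CPM on SW2. It was lowest in FMC fish 2 and SW1 fish 1, the fish in which contig 2509 was highest. Contig 2367 had 1 to 6 counts per fish.

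C1s is the protease that cleaves C4. C1s contig 17601 had 123, 173 and 146 CPM on FMC, 198, 201 and 117 CPM on SW1 and 138, 216 and 193 CPM on SW2, and the diets overlapped. The NCBI entry of C1s (entry BT072785.1) had mean values of 89.4 ± 22.6 CPM on FMC, 105 ± 26.0 CPM on SW1 and 120 ± 28.7 CPM on SW2 (SD, 3 fish), with a log2 fold change of 0.42 ± 0.28 in SW2 vs. FMC (unadjusted p = 0.167, adjusted p = 0.911). Of the 8 C4 contigs, 6 had a value above 0 in SW2 vs. FMC and 6 in SW1 vs. FMC, with medians of 0.23 and 0.14. The most read C4 contig, 18053, had 27.9, 24.0 and 25.5 CPM on FMC, 37.2, 25.8 and 25.6 CPM on SW1 and 25.3, 40.2 and 35.9 CPM on SW2. SW2 fish 1 lay among the FMC fish. In contig 5753, also named C4, the FMC fish had 7.73, 8.67 and 6.51 CPM and the SW2 fish 8.72, 13.8 and 12.4 CPM, so that the diets were apart by a narrow margin. The SW1 fish had 12.6, 6.02 and 5.75 CPM. SW2 vs. FMC gave a log2 fold change of 0.61 ± 0.26 (unadjusted p = 0.0371, adjusted p = 0.823). The NCBI entry of C4 (entry BT071912.1), described as a pseudogene, had 15.3 to 30.8 CPM over all fish.

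C3 divided into contigs that behaved differently. The most read one, 7994, named after bovine C3, had 13.7, 12.7 and 10.9 CPM on FMC, 22.4, 8.96 and 10.5 CPM on SW1 and 16.7, 19.8 and 17.1 CPM on SW2. All SW2 fish lay above all FMC fish, while the SW1 fish held the highest and the lowest value of the 9. In SW2 vs. FMC this came to a log2 fold change of 0.52 ± 0.22 (unadjusted p = 0.0378, adjusted p = 0.823). Contig 45614, named after C3 of marble trout, had 4.57 to 10.3 CPM and no such order.

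The 9 contigs whose best match was the C3 protein of rainbow trout followed particular fish. Their summed counts were 32, 7 and 145 on FMC, 5, 16 and 62 on SW1 and 89, 96 and 131 on SW2. FMC fish 3 was thus the highest of all, FMC fish 2 and SW1 fish 1 were close to 0, and every SW2 fish was above every SW1 fish. The largest of them, contig 56112, had 10, 2 and 43 counts on FMC, 0, 4 and 27 on SW1 and 28, 27 and 35 on SW2. FMC fish 2 was the lowest fish in contig 84897, with 3, 1 and 27 counts on FMC, 4, 3 and 7 on SW1 and 13, 14 and 23 on SW2, and FMC fish 3 was highest in both contigs. All 9 contigs lay higher in SW2 than in SW1 without overlap, where 6.74% of all contigs did so. Contigs 45615, 84862 and 84573 reached the minimum of 20 counts only with their SW2 counts. Their higher values on SW2 are thus partly fixed by the choice. The 9 contigs cannot be read as 9 separate observations, since they match a single protein and may be pieces of 1 transcript. They also made up 7 of the 8 higher contigs at an unadjusted p under 0.05 in SW2 vs. SW1. Contigs 45615, 84862 and 84573 were among these 7.

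Of the trout-matched C3 contigs, 54686 had 2, 1 and 22 counts on FMC, 0, 1 and 6 on SW1 and 10, 11 and 20 on SW2. Its log2 fold change was 2.66 ± 1.03 in SW2 vs. SW1 (unadjusted p = 0.0220, adjusted p = 0.858), and 1.94 to 4.58 with each fish left out in turn. In SW1 vs. FMC it was at 0.250 times the FMC level (unadjusted p = 0.118), and leaving out FMC fish 3 turned the log2 fold change to 0.53. Contig 18081 had a log2 fold change of 2.41 ± 0.97 in SW2 vs. SW1, from 0, 1 and 4 counts on SW1 and 9, 8 and 8 counts on SW2. In contig 45615 the fold change was 2.01 ± 0.78, from 1, 2 and 4 counts on SW1 and 9, 9 and 8 counts on SW2. Contig 84573 had 1 count in the SW1 fish together and 12 in the SW2 fish, a ratio of 13.9 with an exact 95% interval of 2.05 to 594 for counting error only. Contigs 84573 and 45615 reached the count minimum only through SW2. The counts of all these contigs are low, and neither direction passed the adjusted test.

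**Figure D2:**
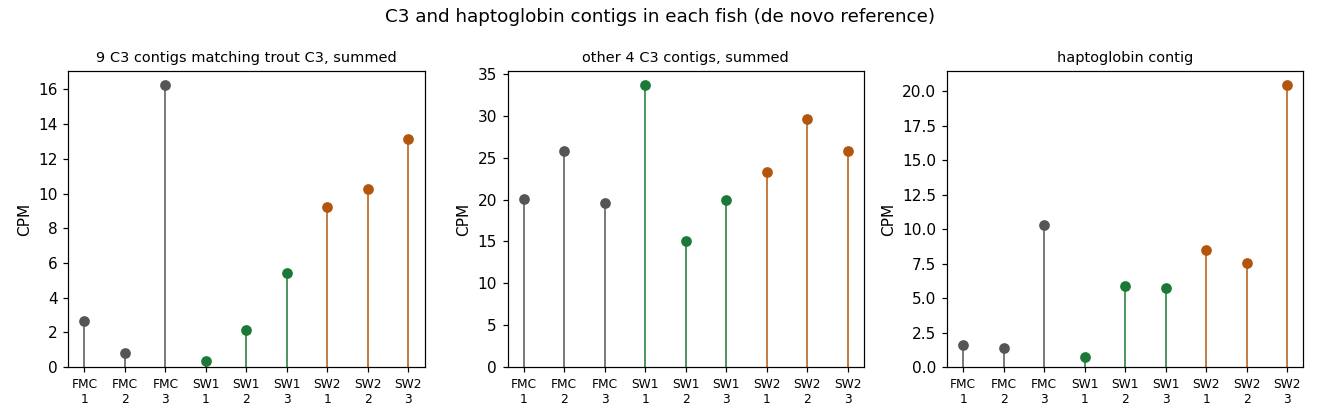
CPM in each of the 9 fish (colored by diet) of the 9 C3 contigs matching rainbow trout C3, summed, of the other 4 C3 contigs, summed, and of the haptoglobin contig; the y axes start at 0. The trout-matched C3 contigs and haptoglobin are both lowest in FMC fish 2 and SW1 fish 1, and the other C3 contigs are not. For haptoglobin, FMC fish 1 is nearly as low as FMC fish 2 (1.58 and 1.39 CPM). Haptoglobin is 1 of 4 hepatocyte genes with a contig, and the other 3 do not share this order.

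Haptoglobin, a plasma protein made by hepatocytes and picked after its values were seen, was also lowest in FMC fish 2 and SW1 fish 1. Its single contig had 19, 12 and 92 counts on FMC, 11, 44 and 66 on SW1 and 82, 71 and 204 on SW2. By CPM, however, FMC fish 1 (1.58) was nearly as low as FMC fish 2 (1.39), with SW1 fish 1 at 0.755. The other hepatocyte genes did not have this order: antithrombin was highest in SW1 fish 1 (52.4 CPM) and lowest in FMC fish 3 (12.1 CPM), and apolipoprotein A-I had 7.97 CPM in FMC fish 2 and 4.32 to 9.63 CPM over all fish. Of the 11 hepatocyte genes listed, 4 had a contig on the de novo reference. Their 9 contigs summed to 239 to 308 CPM on FMC, 209 to 357 CPM on SW1 and 263 to 460 CPM on SW2, most of it serotransferrin (150 to 404 CPM over all fish). Albumin, apolipoprotein B, fibrinogen, alpha-1-antitrypsin, hemopexin, transthyretin and vitellogenin had no contig with 20 counts. The part of hepatocyte RNA in the C3 values was not tested.

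Factor D, the protease that cleaves factor B, had high counts on both references. Contig 1207 had 304, 297 and 218 CPM on FMC, 171, 501 and 371 CPM on SW1 and 294, 473 and 338 CPM on SW2. Its second contig, 282, had 269, 263 and 227 CPM on FMC, 212, 364 and 306 CPM on SW1 and 225, 363 and 278 CPM on SW2. In both, SW1 fish 1 was the lowest of all fish and SW1 fish 2 the highest, and the diets overlapped. The NCBI entry BT049507.1 had the lowest coefficient of variation among members of that reference with 100 or more counts (17.5%), with 2009 to 3180 CPM. The second NCBI entry of factor D, entry BT049738.1, had 264, 245 and 190 CPM on FMC, 330, 378 and 334 CPM on SW1 and 254, 360 and 296 CPM on SW2. All SW1 fish lay above all FMC fish, while SW2 fish 1 lay within the FMC range. This gave 0.55 ± 0.27 on the log2 scale in SW1 vs. FMC (unadjusted p = 0.0732, adjusted p = 1.00), and 0.48 ± 0.21 for the mean of both seaweed diets (unadjusted p = 0.0429, adjusted p = 1.00).

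Properdin was scarce. Its 4 contigs together had 29, 26 and 20 counts on FMC, 70, 21 and 25 on SW1 and 24, 17 and 28 on SW2, so that SW1 fish 1 alone stood out. Contig 67736, the most read of them, had 8 to 13 counts in every fish.

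The terminal pathway held the smallest p-values of SW2 vs. FMC and the most read member. C6 contig 432 had 1409, 1202 and 1047 CPM on FMC, 1399, 1410 and 1185 CPM on SW1 and 1569, 1548 and 1347 CPM on SW2. Its coefficient of variation over the 9 fish, 12.8%, was the lowest of the 52 de novo complement contigs with 100 or more counts, whose median was 30.5%. The SW2 fish were on average highest, but SW2 fish 3 lay below FMC fish 1 (log2 fold change 0.29 ± 0.20, unadjusted p = 0.180). The name of this contig rests on a match to chimpanzee C6 alone. In bulk tissue, here and below, fewer cells of a type and less RNA per cell cannot be told apart.

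C7, which anchors the growing attack complex in the membrane, had 4 contigs, and 2 of them were higher on SW2. Contig 6312 had 119, 107 and 112 CPM on FMC, 105, 171 and 164 CPM on SW1 and 169, 308 and 241 CPM on SW2. The FMC fish lay within a narrow band, every SW2 fish lay above it, SW1 fish 1 was the lowest of the 9, and the other SW1 fish lay above FMC. The mean was 112 ± 6.00 CPM (SD, 3 fish) on FMC, 147 ± 36.4 CPM on SW1 and 239 ± 69.6 CPM on SW2. Against FMC, SW2 was 2.13-fold higher (log2 1.09 ± 0.24), with an unadjusted p of 0.000914, the smallest of any complement contig, and an adjusted p of 0.811. The 14 alternative settings gave log2 values of 0.87 to 1.28 and adjusted p-values of 0.0527 to 1.00. One of them, without FMC fish 2 and SW1 fish 1, is here the same fit as that without FMC fish 2. The contig was named for its small p and its diets did not overlap, so its direction could hardly turn with a fish left out.

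The second of these C7 contigs, 21089, had 21.2, 22.9 and 28.8 CPM on FMC, 19.5, 46.9 and 40.0 CPM on SW1 and 34.5, 56.5 and 45.4 CPM on SW2. As in contig 6312, SW1 fish 1 was below all FMC fish, the other SW1 fish were above them, and all SW2 fish were above FMC. In SW2 vs. FMC contig 21089 had a log2 fold change of 0.90 ± 0.25 (unadjusted p = 0.00382, adjusted p = 0.816). For both seaweed diets together against FMC the values were 0.74 ± 0.26 in contig 6312 and 0.72 ± 0.29 in contig 21089.

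The most read C7 contig, 3575, had another order. It had 128, 245 and 155 CPM on FMC, 327, 169 and 137 CPM on SW1 and 226, 283 and 145 CPM on SW2. Its highest values included those of FMC fish 2 and SW1 fish 1, and the diets overlapped. Contig 6311, named after C7-1 of rainbow trout, had 7.58 to 13.5 CPM over all 9 fish and a log2 fold change of -0.22 in SW2 vs. FMC, the only C7 contig below 0. Contigs 6312 and 3575 were both named after porcine C7, and whether they come from different genes was not tested.

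**Figure D3:**
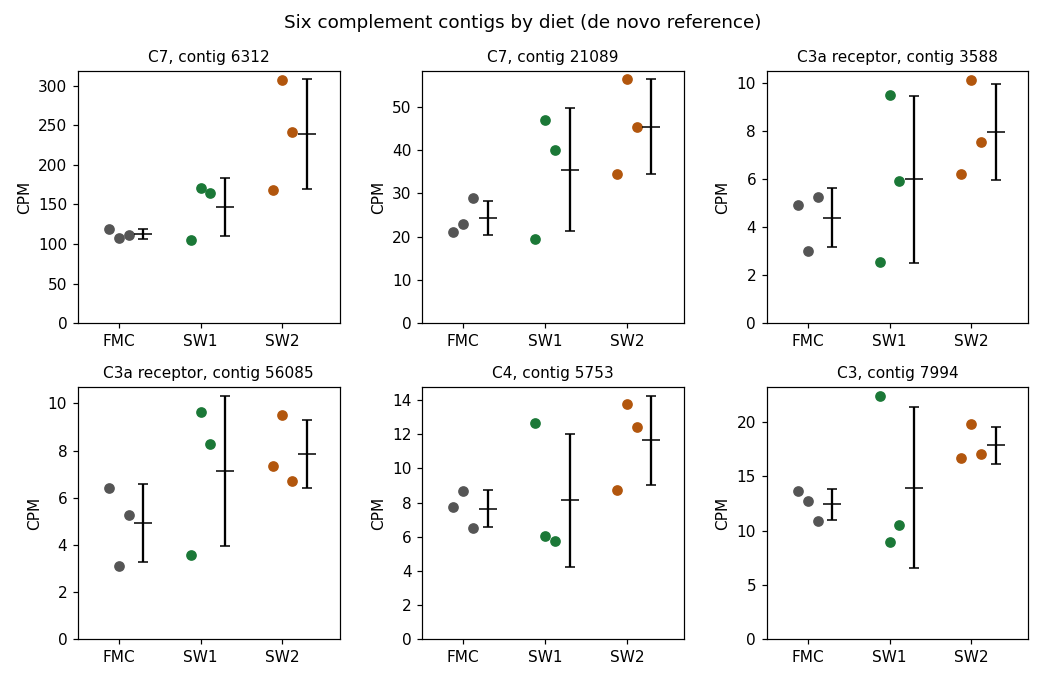
CPM (y axis, from 0) of 6 complement contigs in each fish by diet; points are fish, and the bar beside them is the mean with 1 SD of 3 fish. The 6 contigs were picked from the 10 of 69 in which all SW2 fish lay above all FMC fish. That separation is therefore fixed by the choice (C7 contig 6312: 169 to 308 against 107 to 119 CPM). The SW1 fish overlap with FMC in all 6 panels.

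The C8 gamma chain, a lipocalin bound to C8, was the member with the smallest p in SW1 vs. FMC. Contig 3208 had 10.7, 15.3 and 5.72 CPM on FMC, 20.6, 53.3 and 8.54 CPM on SW1 and 18.7, 23.2 and 9.13 CPM on SW2. SW1 fish 2 was far above the others, and SW1 fish 3 lay within the FMC range. Its log2 fold change was 1.36 ± 0.58 (unadjusted p = 0.0357, adjusted p = 1.00), and 0.48 without SW1 fish 2.

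No soluble regulator contig on the de novo reference separated the diets. The C4b-binding protein alpha chain, a cofactor that helps to degrade C4b, had 21.4 to 39.8 CPM in contig 5126 and 19.9 to 29.5 CPM in contig 10286. On the NCBI reference (entry BT057695.1) it had 23.9, 23.7 and 11.7 CPM on FMC, 26.5, 22.1 and 23.9 CPM on SW1 and 24.2, 38.2 and 25.9 CPM on SW2. The SW2 fish lay narrowly above the FMC fish, with a log2 fold change of 0.57 ± 0.33 (unadjusted p = 0.118, adjusted p = 0.885).

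Decay-accelerating factor, the membrane protein that breaks up C3 convertases, had 2 contigs that differed in pattern. Contig 29838 had 29.8, 28.7 and 27.6 CPM on FMC, 37.9, 39.7 and 26.9 CPM on SW1 and 36.3, 38.8 and 31.9 CPM on SW2. The SW2 fish were all above the FMC fish, at a log2 fold change of 0.31 ± 0.21 (unadjusted p = 0.156). Contig 20162 had 10.1, 46.2 and 9.87 CPM on FMC, 18.8, 8.96 and 6.45 CPM on SW1 and 11.3, 12.1 and 7.52 CPM on SW2. FMC fish 2 was far above the rest and SW1 fish 1 came next. With both seaweed diets set against FMC its log2 fold change was -1.02 ± 0.45 (unadjusted p = 0.0417, adjusted p = 1.00), and without FMC fish 2 it was 0.12.

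The C3a receptor, through which C3a acts on leukocytes, was the receptor with the most contigs. In SW2 vs. FMC all 9 had a log2 fold change above 0 (median 0.61), where 50.3% of all contigs did, and 3 were higher without overlap, where 5.69% of all contigs were. In SW1 vs. FMC 6 of the 9 were above 0 (median 0.42), where 48.3% of all contigs were. Some of these contigs may be pieces of the same transcript, so the 9 cannot be read as separate observations. The most read contig, 3587, had 18.2, 14.8 and 13.6 CPM on FMC, 17.4, 7.89 and 15.1 CPM on SW1 and 22.5, 18.9 and 21.2 CPM on SW2. The SW2 fish were above all other fish, with log2 values of 0.42 ± 0.22 against FMC (unadjusted p = 0.0838) and 0.62 ± 0.30 against SW1 (unadjusted p = 0.0552).

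Contig 3588 of the C3a receptor, named after the trout protein, had 4.90, 3.00 and 5.27 CPM on FMC, 2.54, 9.49 and 5.92 CPM on SW1 and 6.23, 10.1 and 7.52 CPM on SW2. The SW2 fish lay above the FMC fish, and SW1 fish 1 was the lowest of all. This came to a log2 fold change of 0.85 ± 0.30 (unadjusted p = 0.0159, adjusted p = 0.816). Contig 56085 had 6.40, 3.12 and 5.27 CPM on FMC, 3.57, 9.63 and 8.28 CPM on SW1 and 7.37, 9.49 and 6.72 CPM on SW2. FMC fish 2 was its lowest fish and SW1 fish 1 came next. Its log2 fold change in SW2 vs. FMC was 0.66 ± 0.30 (unadjusted p = 0.0508). Contig 36308, named after zebrafish, had 7.06, 6.36 and 10.5 CPM on FMC, 12.5, 11.2 and 12.9 CPM on SW1 and 9.34, 13.0 and 14.1 CPM on SW2. It was the only de novo complement contig in which all SW1 fish lay above all FMC fish (1 of 68 tested, where 2.92% of all contigs did so, and none lay below, where 2.62% did), at 0.61 ± 0.32 (unadjusted p = 0.0787, adjusted p = 1.00). For the mean of both diets vs. FMC its value was 0.61 ± 0.25 (unadjusted p = 0.0269, adjusted p = 1.00).

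Complement receptor 2, which binds C3d on B cells in mammals, had 31.6 to 59.2 CPM in contig 11955, and complement receptor 1-like contig 36022 had 17.7 to 39.2 CPM. Complement receptor-like contig 21149, named after rainbow trout, had 42.6, 68.5 and 44.3 CPM on FMC, 55.9, 65.9 and 52.9 CPM on SW1 and 41.3, 42.4 and 50.9 CPM on SW2. In it all SW2 fish were below all SW1 fish, by a log2 fold change of -0.38 ± 0.27 (unadjusted p = 0.181).

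Over the whole set, 10 of 69 de novo contigs were higher in SW2 than in FMC without overlap (14.5%), where 5.69% of all contigs were, and 1 was lower, where 6.03% were. In SW2 vs. SW1 10 were higher (background 6.74%) and 3 lower (background 6.9%), and 9 of these 10 were the trout-matched C3 contigs. These include contigs 45615, 84862 and 84573, which reached the count minimum only through SW2. Contig 45615 was also among the 10 higher in SW2 than in FMC. No contig of the set was apart between FMC and all 6 seaweed-fed fish (background 0.758% higher and 0.619% lower). Some lists of cell type markers also had medians away from 0 in SW2 vs. FMC. None of their contigs was called by edgeR's quasi-likelihood test, and these medians carry no test. The 26 macrophage marker contigs summed to 2831, 3194 and 2495 CPM on FMC, 3968, 3449 and 2738 CPM on SW1 and 3286, 4227 and 3694 CPM on SW2. In this sum, and in MARCO and the mannose receptor, every SW2 fish was above every FMC fish, and the diets overlapped in the other 4 genes. By contig the macrophage median in SW2 vs. FMC was 0.14 (17 of 26 above 0, with 8 higher and 2 lower without overlap). It was 0.37 for endothelial markers (24 of 29 above 0, with 9 higher and 0 lower) and 0.91 for markers of the steroid-producing interrenal cells (11 of 15 above 0, with 5 higher and 0 lower). The other lists ran from -0.61 for erythroid to 1.45 for chromaffin markers, the latter from 4 contigs with 17 to 128 counts per fish in these diets. The part of these cell types in the C7, C3 and C3a receptor values was not tested.

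Among contigs that carry the words without belonging to the cascade, C1q-binding protein marked 2 fish. This protein, also called gC1qR, resides mainly in mitochondria. Contig 3132 had 254, 54.8 and 205 CPM on FMC, 44.8, 390 and 204 CPM on SW1 and 210, 211 and 148 CPM on SW2. FMC fish 2 and SW1 fish 1 were far below the other fish. Contig 3405 repeated this with 19.3 and 18.0 CPM in those fish and 84.6 to 200 CPM in the others. The third contig, 3404, ran the other way: these fish had its highest values, 8.55 and 5.83 CPM, against 2.67 to 4.16 CPM in the others. The NCBI entry BT048546.1 was low in these fish, like contigs 3132 and 3405, with 39.3 and 44.7 CPM against 206 to 390 CPM. Its coefficient of variation (53.0%) was the highest among members of that reference with 100 or more counts. The references were counted from the same reads, so the agreement is not a second experiment. The diets overlapped in contigs 3132, 3405 and 3404 and in this entry (log2 0.14 ± 0.43 in SW2 vs. FMC for contig 3132). The same fish were highest in hemoglobin contigs, and the part of blood cells in these values was not tested. The NCBI entry BT048164.1 of this protein had 0 to 6 counts per fish.

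**Figure D4:**
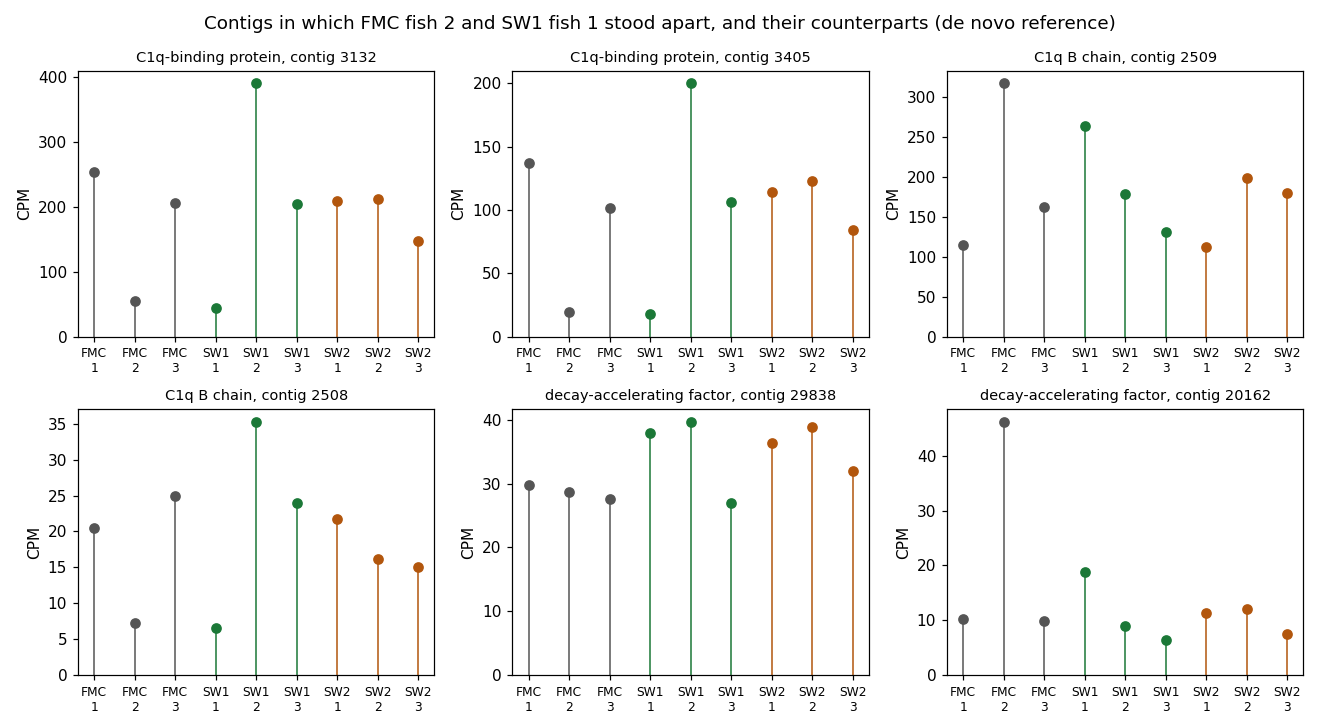
CPM (y axis, from 0) of 6 contigs in each of the 9 fish, colored by diet. FMC fish 2 and SW1 fish 1 are the lowest fish for C1q-binding protein contigs 3132 and 3405 and C1q B chain contig 2508 and the highest for C1q B chain contig 2509 and decay-accelerating factor contig 20162, while decay-accelerating factor contig 29838 does not single them out.

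C1q-like proteins 2 and 4 share the C1q domain but are known in mammals from the nervous system and other tissues and not as complement proteins. C1q-like protein 2 contig 9588 had 179, 49.7 and 140 CPM on FMC, 88.9, 462 and 286 CPM on SW1 and 98.6, 367 and 241 CPM on SW2. The fish of each seaweed diet spread widely and fish 1 of both lay within the FMC range. The difference was 1.18 ± 0.58 on the log2 scale in SW1 vs. FMC (unadjusted p = 0.0631, adjusted p = 1.00), and 0.60 without SW1 fish 2. Contig 52452 of the same name had the highest coefficient of variation among de novo members with 100 or more counts (85.3%), with 6, 41 and 10 counts on FMC, 6, 38 and 17 on SW1 and 54, 4 and 38 on SW2, which followed no diet.

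C1q-like protein 4 had the smallest p among members lower on SW2 than on FMC. Contig 11705 had 78.9, 57.1 and 90.2 CPM on FMC, 45.0, 201 and 51.3 CPM on SW1 and 56.8, 47.3 and 36.7 CPM on SW2. All SW2 fish were below all FMC fish, narrowly at the closest pair, and SW1 fish 2 was the highest of the 9. In SW2 vs. FMC its log2 fold change was -0.68 ± 0.25 (unadjusted p = 0.0196, adjusted p = 0.816). On the NCBI reference the entry of this name (entry BT057260.1) had 9, 1 and 2 counts on FMC, 0, 18 and 2 on SW1 and 0, 0 and 1 on SW2. The ratio of FMC to SW2 from 12 and 1 counts was 11.3 with an exact 95% interval of 1.68 to 484, and that of SW1 to SW2 from 20 and 1 counts was 16.6 with an interval of 2.65 to 686, for counting error only. Of the 20 SW1 counts 18 came from SW1 fish 2, without which the entry would have missed the count minimum. The fitted log2 value of SW2 vs. SW1 was -0.94 without that fish. CD93, named C1q receptor, had 10.4, 14.0 and 8.64 CPM on FMC, 14.1, 20.7 and 9.58 CPM on SW1 and 14.5, 15.1 and 14.6 CPM on SW2 in contig 17834, with the SW2 fish above the FMC fish (log2 0.43 ± 0.24, unadjusted p = 0.107).

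A second set of genes tied to complement but not matched by the words had 43 de novo contigs: C5a receptor, CD59, membrane cofactor protein, clusterin, mannose-binding protein or collectin, pentraxin, carboxypeptidase N or B2, and the integrin chains that form receptors for cleaved C3. None of the 43 was called by edgeR's quasi-likelihood test in any comparison. At an unadjusted p under 0.05 the set had 0 higher and 0 lower in SW1 vs. FMC (1.03% and 0.649% of all contigs), 0 and 1 in SW2 vs. FMC (2.39% and 3.63%) and 1 and 2 in SW2 vs. SW1 (2.05% and 3.74%). For the mean of both diets vs. FMC it had 1 and 0 (1.39% and 1.98%). Without overlap between the diets it had 3 higher and 0 lower in SW1 vs. FMC (2.92% and 2.62% of all contigs), 4 and 1 in SW2 vs. FMC (5.69% and 6.03%) and 2 and 4 in SW2 vs. SW1 (6.74% and 6.9%). Between FMC and all seaweed-fed fish it had 2 higher and 0 lower (0.758% and 0.619%). Its median log2 fold change was 0.02 in SW1 vs. FMC, 0.08 in SW2 vs. FMC, 0.01 in SW2 vs. SW1 and 0.04 for the mean of both diets. The 8 C5a receptor contigs summed to 56.4 to 72.3 CPM and the 9 integrin beta-2 contigs to 392 to 558 CPM over the 9 fish. C1 inhibitor, vitronectin and the complement receptor VSIG4 had no contig with 20 counts. On the NCBI reference the set had 6 entries, and none was called. At an unadjusted p under 0.05, SW2 vs. FMC had 1 higher and 1 lower (2.59% and 3.1% of all entries). So did SW2 vs. SW1 (2.04% and 3.59%). SW1 vs. FMC had none (1.05% and 0.753%), nor had the mean of both diets vs. FMC (1.52% and 1.78%). The 3 CD59 entries summed to 32.1 CPM in FMC fish 1, 63.5 CPM in SW1 fish 2 and 2.32 to 4.18 CPM elsewhere. The 2 mannose-binding protein or collectin entries summed to 101 CPM in SW2 fish 1 and 4.34 to 18.1 CPM elsewhere.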

How the data were processed

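To make the deposited files, the authors used TopHat2 2.0.5 for alignment of every library, removed secondary alignments with SAMtools 0.1.18 and counted reads per sequence with HTSeq 0.5.3p9, according to the paper's methods and the submitters' processing notes. Each deposited value is a raw count for 1 contig in 1 fish, neither normalized nor pooled. The deposited tables also hold the authors' own DESeq comparisons (means, fold changes and p-values), which were not used. The library kit does not mark strand.

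R 4.3.3 and edgeR 4.0.16 were used with TMM scaling. The quasi-likelihood test of edgeR was run on contigs whose counts in the fish fitted summed to 10 or more, and p-values were adjusted by Benjamini-Hochberg over all contigs of a reference (threshold 0.05). SW1 vs. FMC and SW2 vs. FMC used the 6 fish compared. SW2 vs. SW1 and both seaweed diets together against FMC used all 9 fish. Of the complement contigs, 68 of 69 passed the filter in SW1 vs. FMC, and 69 of 69 and 10 of 10 in the others. SE values were obtained as the absolute log2 fold change over the root of F. CPM stands for counts in 1000000 of the TMM-scaled library. The scripts were tested on simulated data. Alternatives were DESeq2 1.42.0, limma 3.58.1 voom with quality weights, DESeq2 size factors, other filters, summed descriptions, a replicate block, each fish left out, and all 9 fish in each fit.

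The members and gene lists were chosen with earlier results of these data known. The joining marks in descriptions were read as spaces, double ones as 1 space (50 and not 69 de novo contigs match if they are not merged). Contigs were named in the text by rule: for each gene of the cascade the contig with the most counts, the 4 members with the smallest p per comparison and reference, and those with the highest and lowest coefficient of variation among members with 100 or more counts. No member had 50 counts in 1 fish with 3 or fewer in 3 others. Contigs 282, 2367, 2508, 3132, 3404, 3405, 5753, 6311, 10286, 17834, 42624, 45614, 56085, 56112 and 84897 were outside this rule and were chosen after their values were seen.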

Additional observations from a re-analysis of the deposited data

How the results depend on the processing

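No complement contig was called by the main fit, and the count stayed at 0 under all alternatives except 1: limma voom with quality weights called 3 members in SW2 vs. SW1 on the de novo reference, all higher on SW2 (C4 contigs 5753 and 42624 and C3 contig 7994, adjusted p 0.0181, 0.0293 and 0.0249), where it called 6159 of 87598 contigs (7.03%). The cause was not tested. Leaving out each fish in turn gave 0 members called in every comparison. With the replicate number as a block the count was 0 in all 4 comparisons on both references. The deviations of same-numbered fish of different diets had correlations of -0.49 to 0.32. With 3 fish per diet, and FMC fish 2 and SW1 fish 1 apart from the rest, these values cannot show whether the numbers pair the fish. The numbers of members at an unadjusted p under 0.05 ranged, over the alternatives, from 2 to 18 in SW2 vs. FMC, 0 to 12 in SW1 vs. FMC, 3 to 22 in SW2 vs. SW1 and 1 to 13 for the mean of both diets on the de novo reference. The upper ends were all from voom, under which 17.6%, 17.9%, 25.8% and 17.5% of all contigs were at that p. The contigs named by smallest p were picked from these same fish, so a kept direction is no separate support for them. Of their 447 alternative values, 445 kept the direction. The exceptions were C3 contig 54686 in SW1 vs. FMC (0.53 without FMC fish 3, and -3.94 to 0.53 over all fish left out in turn) and decay-accelerating factor contig 20162 for the mean of both diets (0.12 without FMC fish 2, and -1.37 to 0.12 in turn). Depth limits the trout-matched C3 contigs (20 to 176 counts in all) and the properdin contigs (25 to 97), among others. With 3 fish per diet from separate tanks, the p-values of edgeR's quasi-likelihood test set a diet difference against the spread between fish. That spread is estimated with information shared over all contigs.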
